A study of Homo sapiens with 12 samples.

Results

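HEK293 cells in which the transcription factor RPF-1 had been switched on were compared with Mock-transfected HEK293 cells kept in the same medium without tetracycline. The comparison used 6 of the 12 arrays in the series, and its members were chosen by their labels alone: 3 arrays of the RPF1 line without tetracycline (RPF1 Tet-) and 3 arrays of the Mock line without it (Mock Tet-). HEK293 is a cell line from human embryonic kidney. RPF1 Tet- cells were stable transfectants with the RPF-1 cDNA in the pTRE2puro vector, whose insert is expressed once tetracycline (Tet) is taken away, and they were grown for 48 h in Tet-depleted medium. Mock Tet- cells were the Mock transfectant after 48 h in the same Tet-depleted medium. The same lines grown for 48 h with Tet, RPF1 Tet+ and Mock Tet+ with 3 arrays each, are used here only to show which differences were also measured while Tet was present. The sources used here do not say whether a line was 1 clone or a pool, what the Mock construct held, or whether the 3 replicates of a group were separate cultures. P-values therefore measure the spread between these samples, which may be technical.

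RPF-1 belongs to the POU domain family of transcription factors and was first described in the retina. POU factors bind DNA through a POU-specific domain joined to a homeodomain, and the sequence most often linked to the family is the octamer. Members of the family control the development of neurons, sensory organs and other tissues.

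RNA was hybridised to Illumina bead arrays, and levels are given as log2 normalized signal, so that a difference of 1 on this scale is a change by a factor of 2. Levels of different genes come from different probes and are not set against each other. Between 13899 and 14493 probes were detected on the RPF1 Tet- arrays, against 13732 to 14017 on the Mock Tet- arrays. RPF1 Tet- 2 and 3 shared a chip with no other group, while RPF1 Tet- 1 lay on the second chip with the 3 Mock Tet- arrays. Entering chip as a block, or using only the second chip, therefore leaves RPF1 Tet- 1 against the 3 Mock Tet- arrays, with its variation assumed equal to that of the others. Pearson correlations across features, which are not independent replicates, were 0.989 to 0.996 between RPF1 Tet- arrays, 0.995 to 0.996 between Mock Tet- arrays and 0.972 to 0.983 between arrays of the 2 groups. Of 7 genes taken as usual for HEK293, NEFM, NEFL, KRT8, KRT18, VIM and CDH2 were detected on all 6 arrays and the renal transcription factor PAX2 on none.

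RPF1 Tet- cells differed from Mock Tet- cells at 4135 of 13228 tested features, 31.3% of them, at a limma adjusted p under 0.05. Of these, 2088 features (15.8%) were higher in RPF1 Tet- and 2047 (15.5%) were lower. Most of the differences were small. The median absolute log2 change was 0.52 among the features called higher and 0.49 among those called lower, and 400 called features (3.02%) changed by at least 1 on the log2 scale, with 216 higher (1.63%) and 184 lower (1.39%). The 3 RPF1 Tet- values lay all above the 3 Mock Tet- values for 2998 features (22.7%) and all below for 2955 (22.3%), together 5953 features (45%). The median log2 change over all tested features was 0.00. With chip as a block 1255 features were called, 599 higher and 656 lower, and 1119 were called when only the second chip was used. All 4135 features had the same sign with the block, which rests on arrays that also called them.

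**Figure D1:**
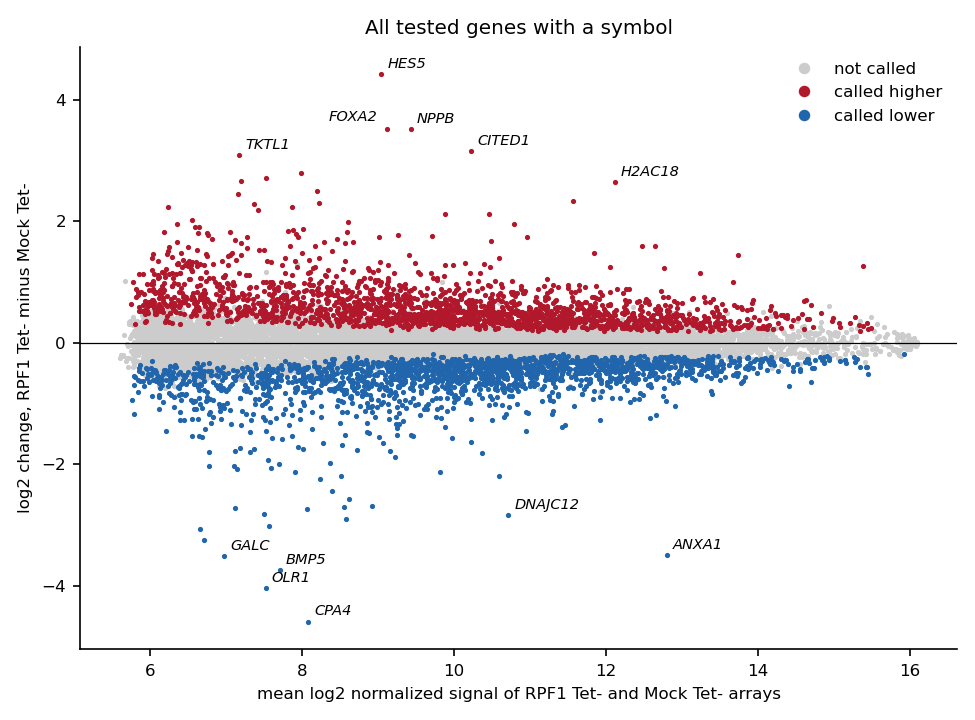
Log2 change between RPF1 Tet- and Mock Tet- arrays (vertical axis) against the mean log2 normalized signal of the 6 arrays (horizontal axis) for each tested gene with a symbol, 1 point a gene; red points were called higher in RPF1 Tet-, blue points lower and grey points not called. Points with changes beyond 2 lie on both sides, led by HES5 at 4.42 and CPA4 at -4.59.

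HES5, NPPB and FOXA2 rose most in RPF1 Tet- cells. HES5, a basic helix-loop-helix repressor known as a Notch target, had log2 signals of 10.93, 11.54 and 11.27 on the RPF1 Tet- arrays, against 6.68, 6.77 and 7.03 on the Mock Tet- arrays. The lowest RPF1 Tet- array lay far above the highest Mock Tet- array, and the gene was 21.4-fold higher (log2 change 4.42 ± 0.39 SE, adjusted p = 1.86e-05, limma). FOXA2, a forkhead factor of the endoderm and the neural floor plate, read 10.96, 10.79 and 10.87 in RPF1 Tet- and 7.44, 7.47 and 7.17 in Mock Tet-. The arrays within each group were close together, and FOXA2 was 11.4-fold higher (3.52 ± 0.19, adjusted p = 6.60e-07, limma). CITED1, a transcriptional co-regulator that marks nephron progenitors in the developing kidney, read 11.86, 11.55 and 11.99 in RPF1 Tet-, against 8.64, 8.66 and 8.63 in Mock Tet-. Its 3 Mock Tet- values were almost identical and none came near the RPF1 Tet- values (3.16 ± 0.11, adjusted p = 1.40e-08, limma).

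NPPB, which encodes the precursor of the B-type natriuretic peptide, had 11.24, 10.64 and 11.68 in RPF1 Tet- and 7.79, 7.52 and 7.71 in Mock Tet-. The RPF1 Tet- arrays were spread over about 1 log2 unit, well above a tight Mock Tet- group (3.52 ± 0.37, adjusted p = 6.31e-05, limma). VGF, a neuronal peptide precursor, read 9.63, 9.13 and 9.59 in RPF1 Tet-, against 7.07, 6.78 and 6.97 in Mock Tet-, again without overlap (2.51 ± 0.20, adjusted p = 1.13e-05, limma). NPTX2, a neuronal pentraxin, read 11.57, 11.41 and 11.56 in RPF1 Tet-, against 9.19, 9.50 and 9.50 in Mock Tet- (2.12 ± 0.16, adjusted p = 8.79e-06, limma). In the list of neuroendocrine and neuronal genes as a whole the changes ran both ways: of 29 tested members 10 rose and 7 fell, with a median of 0.11; with chip as a block 6 were higher and 4 lower. The share called in this list was 58.6%, beside 31.3% of all features. The neural adhesion molecule NCAM1 (-0.91), the dendritic microtubule protein MAP2 (-0.89) and the synaptic vesicle protein SYT1 (-0.61) were among those that fell.

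Among the 15 largest rises, HES5, NPPB, FOXA2, CITED1 and VGF are given above, and NPTX2, named through its list, lay outside them. The others were TKTL1, a transketolase-like protein (3.10), the histone genes H2AC11 (2.80), H2AC18 (2.64), H2AC21 (2.45) and H2AC20 (2.33), the serine protease family member PRSS35 (2.71), the neuronal immediate early gene ARC (2.66), the GDNF family receptor GFRA2 (2.30), the AP-1 subunit FOS (2.28) and the Ras-related gene RASD1 (2.24). All 15 were also called when only the second chip was used. Several of them started from signals that were not well above background. TKTL1 was detected on no Mock Tet- array and on all 3 RPF1 Tet- arrays, at 8.50, 9.19 and 8.47 against 5.94, 5.49 and 5.45, which makes it at least 6.09-fold higher in RPF1 Tet- (adjusted p = 3.50e-05, limma). Here and below, such a bound sets the mean of the group with signal against, on each array of the other group, the lowest signal of any detected probe or the gene's own value, whichever is higher. By the same rule ARC was at least 5.30-fold higher and H2AC21 at least 4.83-fold higher. PRSS35 and FOS were each detected on 2 of the 3 Mock Tet- arrays.

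**Figure D2:**
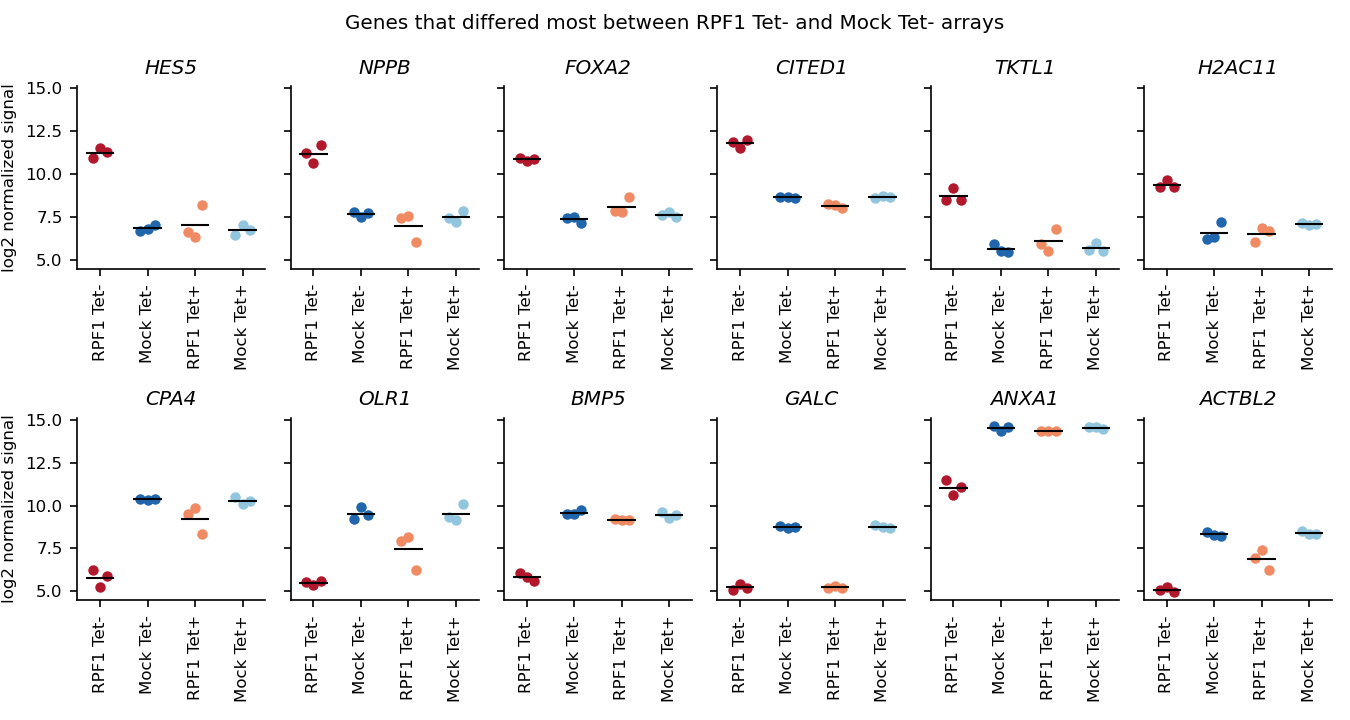
Log2 normalized signal (vertical axis) of the 6 genes that rose most (top row) and the 6 that fell most (bottom row) on every array of RPF1 Tet-, Mock Tet-, RPF1 Tet+ and Mock Tet+ cells; points are arrays and bars are group means of 3. RPF1 Tet- and Mock Tet- points are apart in every panel, while GALC is also low in RPF1 Tet+ and OLR1 and ACTBL2 lie between in RPF1 Tet+.

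CPA4, OLR1 and BMP5 fell most in RPF1 Tet- cells. CPA4, a secreted carboxypeptidase, read 6.23, 5.25 and 5.87 in RPF1 Tet-, against 10.38, 10.35 and 10.39 in Mock Tet-. It was detected on only 1 of the 3 RPF1 Tet- arrays, and all 3 lay far below a nearly constant Mock Tet- level (log2 change -4.59 ± 0.34 SE, adjusted p = 5.68e-06, limma). ANXA1, a calcium-dependent phospholipid-binding protein, was a bright gene in both groups, with 11.50, 10.59 and 11.06 in RPF1 Tet- and 14.66, 14.38 and 14.60 in Mock Tet-. It stayed detected on every array and was 11.3-fold lower in RPF1 Tet- (-3.50 ± 0.18, adjusted p = 2.96e-07, limma).

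BMP5, a bone morphogenetic protein, read 6.06, 5.84 and 5.62 in RPF1 Tet-, where no array detected it, against 9.49, 9.49 and 9.75 in Mock Tet-. It was at least 11.9-fold lower in RPF1 Tet- (adjusted p = 1.36e-08, limma). OLR1, the receptor for oxidised low density lipoprotein, read 5.55, 5.39 and 5.58 in RPF1 Tet-, also undetected, against 9.24, 9.92 and 9.45 in Mock Tet-, at least 11.5-fold lower (adjusted p = 6.95e-05, limma). The lysosomal enzyme GALC (at least 6.62-fold lower), the actin-like gene ACTBL2 (at least 4.99-fold) and the translation termination factor GSPT2 (at least 4.55-fold) were likewise undetected on all 3 RPF1 Tet- arrays and detected on all 3 Mock Tet- arrays.

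The remaining genes among the 15 that fell most were the complex I subunit NDUFV3 (-3.02), the Eph receptor EPHA3 (-2.91), the cochaperone DNAJC12 (-2.84), the matrix protein EDIL3 (-2.81), the eEF1A lysine methyltransferase EEF1AKMT1 (-2.73), the cancer-testis antigen MAGEB2 (-2.71), the semaphorin SEMA3C (-2.71) and the coagulation inhibitor TFPI (-2.68). EDIL3 and NDUFV3 were detected on 2 of the 3 RPF1 Tet- arrays and MAGEB2 on 1. None of the 15 overlapped between the groups, which the choice of these genes required. DNAJC12 had the steadiest values, 9.48, 9.20 and 9.21 in RPF1 Tet- and 12.14, 12.11 and 12.15 in Mock Tet-, and its other probes gave -2.53 and -2.64. Probes of EPHA3 differed in size, as its other kept probe gave -1.01.

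Across the array, 160 features were undetected on all 3 Mock Tet- arrays and detected on all 3 RPF1 Tet- arrays, 124 of them called higher. The reverse held for 35 features, 29 of them called lower. Both kinds were chosen by detection on these same arrays, so the counts of calls are a description. Some of the first kind, such as MYOM2 and HSPA6, were detected on no array outside RPF1 Tet-. They passed the detection filter through that group alone. RPF1 Tet- 2 and 3, on the chip of their own, detected the most probes of the 6 arrays, 14493 and 14318, and the part of this in the unequal numbers was not tested. Beside the genes above, the 8 largest of the first kind included the muscle M-band gene MYOM2 (at least 2.35-fold higher), the inositol phosphatase INPP5D (at least 2.71-fold), the sulfatase family member ARSL (at least 2.33-fold), the adhesion receptor ADGRF5 (at least 2.81-fold) and the zinc finger gene ZNF311 (at least 2.68-fold). In MYOM2 and INPP5D, RPF1 Tet- 1 was the lowest of the 3 RPF1 Tet- arrays, at 6.69 and 6.91, while RPF1 Tet- 2 reached 8.02 and 8.20. The largest of the second kind included the T cell surface gene CD6 (at least 1.90-fold lower), the protease inhibitor PI3 (at least 2.10-fold) and the cancer-testis antigen MAGEA3 (at least 1.29-fold).

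Histone genes formed the list with the largest number of rises. Of 73 listed histone genes 44 were tested, and 24 rose and 3 fell in RPF1 Tet- cells (61.4% called, beside 31.3% of all features). Their median log2 change was 0.46, against 0.00 over all features. Some of them, such as H2AC11, lie on chromosome 6, whose tested genes had a median of 0.33. H2AC18, H2AC20 and H2AC21 lie on chromosome 1, with a median of -0.02. The part of the chromosome in the histone changes was not tested. Core histones package DNA into nucleosomes, and many of their genes lie in clusters and are copied so closely that a probe may read more than 1 of them, so single assignments are uncertain. H2AC18 read 13.48, 13.42 and 13.40 in RPF1 Tet-, against 10.62, 10.94 and 10.81 in Mock Tet- (2.64 ± 0.11, adjusted p = 7.05e-08, limma). H2AC11 read 9.23, 9.66 and 9.25 in RPF1 Tet- and 6.23, 6.31 and 7.19 in Mock Tet- (2.80 ± 0.25, adjusted p = 2.47e-05, limma). Both genes were separated by more than 2 log2 units between the nearest arrays of the 2 groups. The linker histone H1-2 (1.59), the H2A variant H2AJ (1.97) and the core genes H2BC11 (1.75), H2AC17 (1.71) and H2AC8 (1.70) also rose, whereas H2BC5 (-0.94), H1-3 (-0.45) and H2AC15 (-0.33) fell. With chip as a block 18 histone genes were higher and 1 lower, and using only the second chip 16 and 1.

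With Tet in the medium the histone difference between the lines ran the other way. Of the same 44 genes, 0 were higher and 15 were lower in RPF1 Tet+ than in Mock Tet+ (limma; 1 was higher at an unadjusted p under 0.05), and the median was -0.29. The difference of the line differences, Tet- minus Tet+, was called above 0 for 23 of the 44 and below 0 for 0 (1 at an unadjusted p under 0.05). Histone synthesis is coupled with DNA replication. Of 54 tested S phase and replication genes 7 rose and 8 fell without Tet (27.8% called), with a median of 0.01. Of 45 genes of G2 and mitosis 7 rose and 5 fell (26.7%), with a median of 0.05. Both shares lie near the 31.3% of all features. The part of the cell cycle in the histone changes was not tested.

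**Figure D3:**
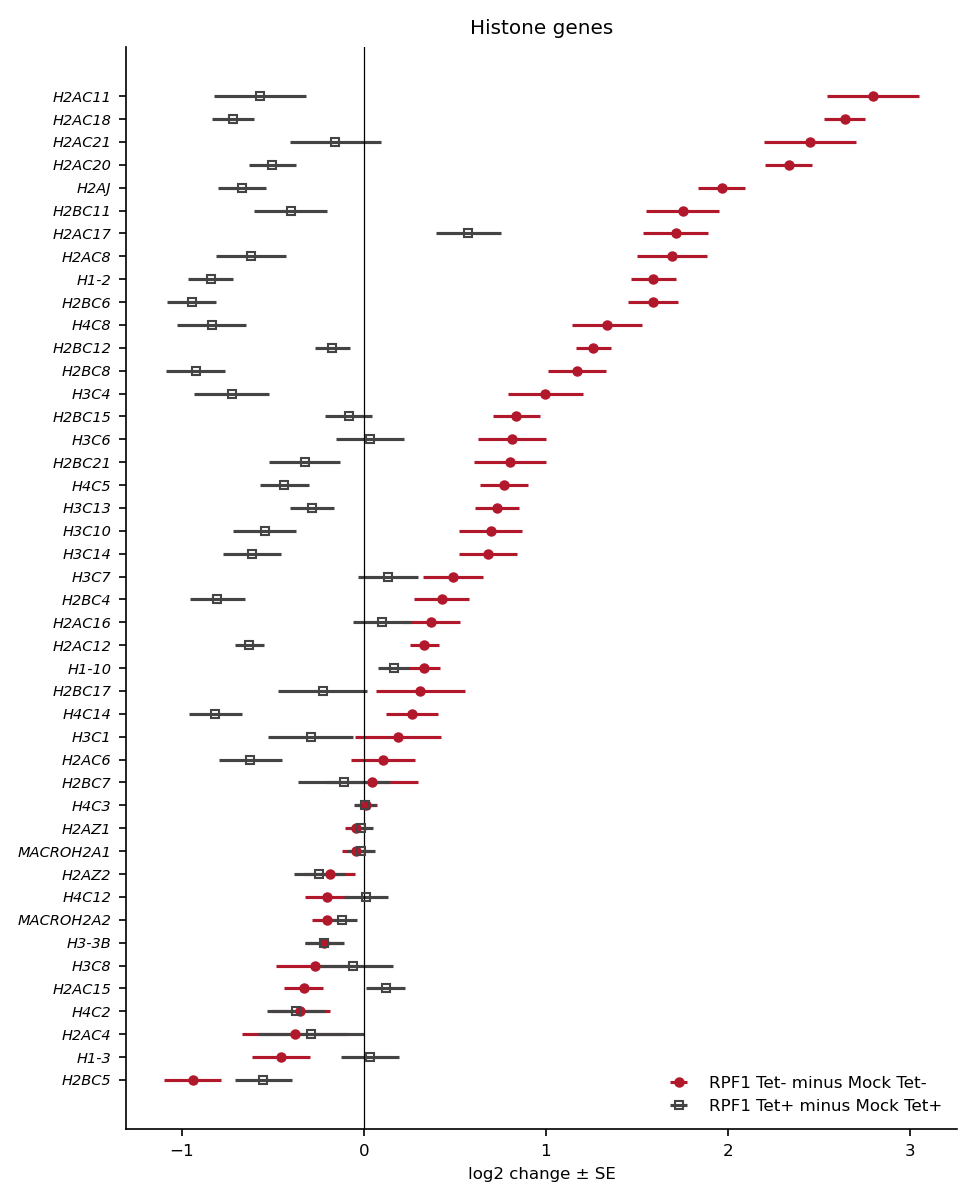
Log2 change ± SE (horizontal axis) of each of the 44 tested histone genes, ordered by the change between RPF1 Tet- and Mock Tet- (filled circles), with RPF1 Tet+ against Mock Tet+ as open squares. The filled circles reach 2.80 for H2AC11, while most open squares lie below 0.

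The octamer that POU factors are known to bind is also a known element of histone H2B promoters. Windows that held it are shown for 3 histone genes that rose and 1 histone gene near 0. All were chosen for holding the octamer, so its presence in them is not a result. H2AC18 rose as well but had no match and is not shown. Each is the 250 bases before the gene's start in RefSeq on GRCh38.p14, read on the gene's own strand from 5′ to 3′, and the capitals mark the octamer ATGCAAAT or its reverse complement ATTTGCAT. H2AC11 lies on the plus strand at chr6:27132793-27133042, H2AC21 on the minus strand at chr1:149887966-149888215, H2AC20 on the plus strand at chr1:149886668-149886917 and H2BC7 on the plus strand at chr6:26199266-26199515.
H2AC11: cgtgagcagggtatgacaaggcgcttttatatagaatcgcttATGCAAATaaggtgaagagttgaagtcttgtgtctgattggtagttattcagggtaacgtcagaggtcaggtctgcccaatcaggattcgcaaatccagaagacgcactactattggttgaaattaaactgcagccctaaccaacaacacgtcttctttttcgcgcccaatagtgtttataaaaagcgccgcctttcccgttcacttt
H2AC21: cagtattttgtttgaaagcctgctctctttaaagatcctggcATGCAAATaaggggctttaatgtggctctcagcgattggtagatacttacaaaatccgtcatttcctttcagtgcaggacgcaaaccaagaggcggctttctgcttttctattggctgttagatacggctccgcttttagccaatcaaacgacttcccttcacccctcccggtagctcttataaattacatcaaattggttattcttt
H2AC20: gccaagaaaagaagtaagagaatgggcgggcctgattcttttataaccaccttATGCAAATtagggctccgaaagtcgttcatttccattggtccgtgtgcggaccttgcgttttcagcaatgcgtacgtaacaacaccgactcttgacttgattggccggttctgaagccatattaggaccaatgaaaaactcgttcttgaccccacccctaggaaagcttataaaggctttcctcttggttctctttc
H2BC7: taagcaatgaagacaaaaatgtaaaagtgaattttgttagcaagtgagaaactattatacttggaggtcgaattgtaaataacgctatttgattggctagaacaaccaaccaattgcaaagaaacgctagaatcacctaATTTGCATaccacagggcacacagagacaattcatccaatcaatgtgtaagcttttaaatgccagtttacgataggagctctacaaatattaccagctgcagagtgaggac

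The octamer began 208 bases before the start in H2AC11 and in H2AC21, 197 bases before it in H2AC20 and 111 bases before it in H2BC7. H2AC11, H2AC21 and H2AC20 rose by 2.80, 2.45 and 2.33, whereas H2BC7, dim in both groups, changed by 0.04 (adjusted p = 0.911, limma). An exact octamer on either strand was present in the window of 11 of 23 histone genes that rose and had a promoter in the table (47.8%), and in 7 of the 19 that did not rise (36.8%). Over all 27305 genes of the table the share was 2.03%. Where a gene has several listed starts, a match at any of them was counted. Outside the listed histone genes it was found for 1.87% of matched features called higher, 2.16% of those called lower and 1.63% of those not called. Of the 15 genes that rose most, 11 had a window and 3 of these held the octamer, all of them the histone genes shown. The listed windows of HES5, CITED1 and H2AC18 held none. Of the 15 that fell most, 13 had a window and 0 held it. A match describes these letters only and was not tested for binding.

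Developmental transcription factors changed in both directions. Of 47 tested, 17 rose and 9 fell (55.3%, beside 31.3% of all features), with a median of 0.05; with chip as a block 10 were higher and 5 lower. Beside FOXA2, the forkhead genes FOXQ1 (1.85 ± 0.20) and FOXF1 rose, the second from no detection in Mock Tet- (at least 2.67-fold higher). The haematopoietic and neural factor GATA2 (0.97), the midbrain homeobox gene EN2 (0.92), the pluripotency factor KLF4 (0.92) and the neural homeobox gene NKX2-2 (0.81) rose as well. RUNX1, a haematopoietic factor, read 7.74, 6.48 and 7.22 in RPF1 Tet- and 8.56, 8.56 and 8.40 in Mock Tet- (-1.36 ± 0.33, adjusted p = 0.00967, limma). Its call was lost once chip entered as a block (-0.77, adjusted p = 0.31). Its other kept probe gave 0.08. The homeobox genes ALX1 (-1.24) and OTX1 (-1.01) and the mesodermal factor TWIST1 (-0.74) fell. Among HOX genes 40% were called, beside 31.3% of all features. Of 25 HOX genes 7 rose, HOXB8 most (1.04), and 3 fell; with the block 2 were higher and 1 lower, and HOXB8 was not among them (0.76, adjusted p = 0.18).

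Of 22 tested SOX and neural basic helix-loop-helix factors 10 rose and 2 fell (54.5%, beside 31.3% of all features), with a median of 0.52, and with chip as a block 6 were higher and 1 lower. SOX8 (1.15), SOX21 (1.05), SOX17 (0.88) and the helix-loop-helix inhibitors ID1 (0.92), ID4 (0.70) and ID2 (0.57) rose. SOX11, a factor of immature neurons, went the other way, with 6.47, 7.11 and 6.51 in RPF1 Tet- and 8.72, 8.54 and 8.83 in Mock Tet- (-2.0 ± 0.17, adjusted p = 1.59e-05, limma). It was lower in RPF1 Tet+ than in Mock Tet+ as well, with a log2 change of -2.55.

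The genes of kidney and eye development held members that moved strongly in both directions. The shares called were 56.5% for kidney and 62.5% for eye and retina genes, beside 31.3% of all features. Of 23 kidney development genes 7 rose and 6 fell, with a median of 0.10, and with the block 4 were higher and 4 lower. CITED1 led the rises, followed by SALL4 (0.93), LHX1 (0.80) and EYA2 (0.78). The BMP antagonist GREM1 read 7.09, 6.05 and 6.56 in RPF1 Tet-, against 8.46, 8.74 and 8.66 in Mock Tet- (-2.06 ± 0.27, adjusted p = 2.52e-04, limma), and the transcriptional co-activator EYA1 (-1.31) fell too. Of 16 tested eye and retina genes 2 rose and 8 fell, with a median of -0.25; with the block 1 was higher and 4 lower. DACH1 (-1.33), EYA1, the eye field factors RAX (-0.96) and SIX3 (-0.71), EYA4 (-0.62), the pigment cell regulator MITF (-0.55), the lens crystallin CRYBB2 (-0.75) and the eye master regulator PAX6 (-0.26) fell, while EYA2 and the small heat shock crystallin CRYAB (1.16) rose. The other kept probe of DACH1 gave -0.34.

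**Figure D4:**
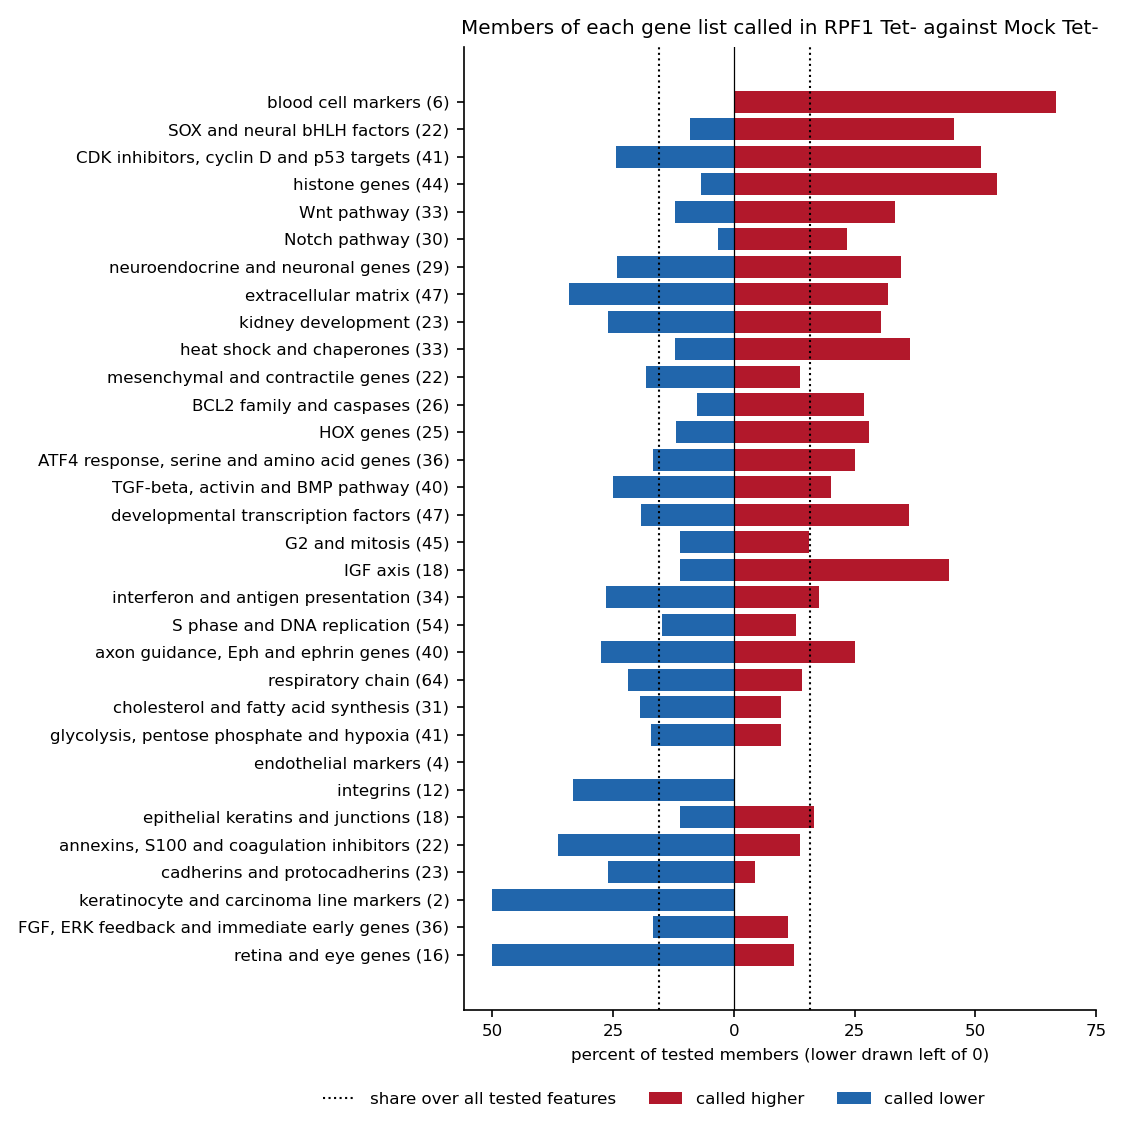
Percent of the tested members of each gene list (number tested in brackets) called higher (red, right of 0) and lower (blue, left of 0) in RPF1 Tet- against Mock Tet-, ordered by the median log2 change of the list. Dotted lines mark the shares over all tested features, 15.8% higher and 15.5% lower.

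Notch signalling passes between neighbouring cells from membrane ligands to Notch receptors, which then drive HES and HEY genes. Of 30 tested members 7 rose and 1 fell, so that 26.7% were called beside 31.3% of all features, with a median of 0.11, and with chip as a block 2 were higher and 1 lower. The ligand DLL1 rose without overlap, at 9.59, 9.37 and 9.56 in RPF1 Tet- and 7.72, 7.46 and 7.84 in Mock Tet- (1.83 ± 0.13, adjusted p = 4.30e-06, limma). The ligand JAG1 (0.59) and the receptor NOTCH1 (0.56) rose less. Among the targets the rise was uneven: HES5 rose by 4.42 and HES6 by 0.31, while HES1 changed by 0.07 and HEY1 by 0.42 without passing the test, and the feedback gene NRARP fell (-0.68).

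Of 33 Wnt pathway genes 11 rose and 4 fell (45.5% called, beside 31.3% of all features), with a median of 0.22. With chip as a block this split was not kept, as 2 were higher and 4 lower. The receptors FZD10 (0.84), FZD8 (0.83) and FZD7 (0.73) and the feedback genes NKD1 (0.69) and AXIN2 (0.66) rose. The secreted inhibitor DKK1 read 7.39, 7.49 and 7.36 in RPF1 Tet- and 9.83, 9.67 and 9.32 in Mock Tet- (-2.20 ± 0.20, adjusted p = 2.68e-05, limma). The R-spondin receptors LGR5 (at least 1.58-fold lower) and LGR4 (-0.85) and the ligand WNT5A (-1.04) fell with it.

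In the TGF-beta, activin and BMP pathway 8 of 40 genes rose and 10 fell, with a median of 0.05; with the block 1 was higher and 7 lower. The stress-responsive ligand GDF15 (1.34) and the ligand BMP7 (0.75) rose, while BMP5, the activin antagonist FSTL3 (-1.77), the signal transducer SMAD2 (-1.59), the ligand TGFB2 (-1.16) and the receptor BMPR2 (-0.91) fell. SMAD2 read 7.30, 6.40 and 7.13 in RPF1 Tet- and 8.50, 8.54 and 8.55 in Mock Tet-. Its spread lay mostly in the RPF1 Tet- group. The share called in this pathway was 45%, beside 31.3% of all features.

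The insulin-like growth factor genes held 8 rises and 2 falls among 18 tested, with a median of 0.04; with the block 6 were higher and 2 lower. IGF2, the fetal growth factor, was detected on no Mock Tet- array and read 7.17, 7.76 and 6.93 in RPF1 Tet-, at least 2.25-fold higher (adjusted p = 1.38e-04, limma). The binding proteins split: IGFBP5 (1.31), IGFBP4 (1.13), IGFBP2 (0.84) and IGFBP6 (0.60) rose, and IGFBP3 (-1.30) and IGFBP7 (-1.24) fell. IGFBP5 was not called with chip as a block (0.80, adjusted p = 0.25). The glycoprotein STC1, counted with this list, rose by 1.75. The share called in the list was 55.6%, beside 31.3% of all features.

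Of 40 axon guidance, Eph and ephrin genes 10 rose and 11 fell, with a median of 0.00, and with the block 2 were higher and 7 lower. The class 3 semaphorins SEMA3C and SEMA3A (-1.80) and their receptor NRP1 (-1.88) fell together. NRP1 read 8.15, 8.36 and 8.32 in RPF1 Tet-, against 10.48, 9.97 and 10.04 in Mock Tet-, and its other kept probe gave -1.47. Among the rises were the receptors EPHB1 (1.01) and EPHB3 (0.81) and the ligand EFNA1 (0.87). The share called in this list was 52.5%, beside 31.3% of all features.

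Of 23 cadherins and protocadherins 6 fell and 1, CELSR3 (1.02), rose, so that 30.4% were called beside 31.3% of all features, with a median of -0.11. With the block 1 was higher and 5 lower. PCDH7 read 9.73, 9.13 and 9.62 in RPF1 Tet-, against 11.71, 11.65 and 11.71 in Mock Tet- (-2.20 ± 0.13, adjusted p = 1.14e-06, limma). The neural cadherin CDH2, taken as usual for HEK293, fell by a smaller amount (-0.52). The shares called were 33.3% for integrins and 50% for annexins, S100 proteins and coagulation inhibitors, beside 31.3% of all features. Of 12 integrins 0 rose by limma, also at an unadjusted p under 0.05, and 4 fell (33.3% called; 2 with the block), namely ITGA1 (-0.80), ITGAV (-0.72), ITGB4 (-0.61) and ITGA5 (-0.24); the other kept probe of ITGB4 gave 0.25. Annexins, S100 proteins and coagulation inhibitors had 3 rises and 8 falls among 22, in which ANXA5 (-0.63) and ANXA2 (-0.56) fell far less than ANXA1; with the block 1 was higher and 3 lower.

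Extracellular matrix genes split almost evenly, with 15 of 47 higher, 16 lower and a median of 0.10; with chip as a block 3 were higher and 10 lower. The basement membrane chain LAMA1 (1.28), the collagen COL7A1 (0.94) and the basement membrane linker NID1 (0.72) rose. COL3A1, a fibrillar collagen, read 7.77, 8.24 and 7.52 in RPF1 Tet- and 9.70, 9.49 and 9.61 in Mock Tet- (-1.76 ± 0.19, adjusted p = 9.37e-05, limma). The laminin chain LAMA4 (-1.75), the thrombospondin THBS2 (-1.54) and the proteoglycan LUM (-1.33) fell with it. Of the matrix genes 66% were called, and of the mesenchymal and contractile genes 31.8%, beside 31.3% of all features. In the list of mesenchymal and contractile genes 3 of 22 rose and 4 fell, among them the actin-binding TAGLN (1.45) and the intermediate filament VIM (-0.64); with the block 2 were higher and 2 lower.

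In the list of cyclin-dependent kinase inhibitors, cyclin D genes and p53 targets, 31 of 41 were called (75.6%, beside 31.3% of all features). Of these 21 were higher and 10 lower, and the median of the list was 0.48. With chip as a block 9 were higher and 5 lower, and using only the second chip 5 and 3. Among the rises were the p53 targets TP53I3 (1.28), TP53INP1 (1.28), PMAIP1 (0.91), SESN1 (0.85), TNFRSF10B (0.84), MDM2 (0.74) and CDKN1A (0.65). These names were picked from the rises, and p53 targets were not counted apart from the rest of the list. Using only the second chip, TP53I3 (1.01) and TP53INP1 (0.99) were not called. The kinase inhibitor CDKN1C (1.18) rose too but was not called with the block (0.83). The kinase inhibitors did not move as a group. CDKN2B read 7.48, 7.35 and 7.19 in RPF1 Tet- and 9.93, 9.88 and 9.91 in Mock Tet- (-2.57 ± 0.10, adjusted p = 3.51e-08, limma), and CDKN2A (-0.78) and CDKN1B (-0.64) fell as well. The other kept probe of CDKN2B gave -0.92. Of the BCL2 family and caspase genes 34.6% were called, near the 31.3% of all features. Among 26 BCL2 family and caspase genes 7 rose and 2 fell, with a median of 0.07 and with BIK, a pro-apoptotic member, highest (0.96); with the block 4 were higher and 1 lower.

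The stress lists held few large changes. The shares called were 48.5% for heat shock, 41.7% for ATF4, 27.8% for FGF and ERK and 44.1% for interferon genes. Over all features the share was 31.3%. Heat shock and chaperone genes had 12 rises and 4 falls among 33, with a median of 0.09, and the inducible HSP70 genes HSPA6 (at least 1.84-fold higher) and HSPA1A (1.17) led the rises; with the block 4 were higher and 2 lower. Of 36 genes of the ATF4 response 9 rose and 6 fell, with a median of 0.06 and no absolute change over 1; with the block 2 were higher and 1 lower. Of 36 FGF, ERK feedback and immediate early genes 4 rose and 6 fell, with a median of -0.14, and FOS (2.28) and JUN (-1.05), both AP-1 subunits, moved apart; with the block 3 were higher and 4 lower. Interferon and antigen presentation genes had 6 rises and 9 falls among 34, where IFIT2 (at least 2.01-fold higher) and TAP1 (0.92) rose and BST2 (-1.51), IFITM3 (-1.39) and IFIT1 (-1.06) fell; with the block 3 were higher and 7 lower.

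In the metabolic lists the large changes were in single genes. The shares called were 35.9% for respiratory chain, 26.8% for glycolysis and 29% for cholesterol genes, and 27.8% for epithelial genes. These lie near the 31.3% of all features. Respiratory chain genes had 9 rises and 14 falls among 64, with a median of -0.02, and NDUFV3 was the single large change, at 6.32, 6.09 and 5.75 in RPF1 Tet- and 9.13, 8.96 and 9.12 in Mock Tet-. The next respiratory chain gene in size, NDUFC2, changed by -0.83, and with the block 0 of the list were higher and 3 lower. Glycolysis, pentose phosphate and hypoxia genes had 4 rises and 7 falls among 41, where TKTL1 was the single change above 1; with the block 1 was higher and 2 lower. Cholesterol and fatty acid synthesis genes had 3 rises and 6 falls among 31, and 1 and 3 with the block. Epithelial keratins and junction genes had 3 rises and 2 falls among 18, and 0 and 1 with the block, and the desmosomal plakophilin PKP3 was lowest (-1.80).

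Of 21 blood cell markers 18 were on the array and 6 were tested, of which CD68 (1.15), CD8A (at least 1.56-fold higher), HBA1 (0.89) and LCP1 (0.44) rose, while the pan-leukocyte gene PTPRC changed by -0.43 without passing the test; with the block 1 was higher. The call of LCP1 was lost in 18 of 25 alternative settings, with an adjusted p of up to 0.15 (limma) when 1 array was left out. That of HBA1 was lost with chip as a block (1.06, adjusted p = 0.11, limma) and with each of 4 single arrays left out. The summed linear signal of the 6 tested blood cell markers was 2232.5 to 2565.0 in RPF1 Tet- and 1340.0 to 1410.3 in Mock Tet-. The brightest probes weigh most in such a sum. Of these 6 markers 66.7% were called, beside 31.3% of all features. CD3D, CD3E, CD14, MS4A1 and HBB were detected on none of the 6 arrays, but 7 of the 21 listed markers were detected on at least 1. PTPRC, ITGAX, CD68, LCP1 and HBA1 were detected on all 3 arrays of both groups. CD8A was detected on 3 RPF1 Tet- and 0 Mock Tet- arrays, and LYZ on 0 and 1. Of 12 endothelial markers 4 were tested and 0 were called by limma, also 0 with chip as a block and 1 at an unadjusted p under 0.05, and CDH5 was detected on no array. In all, 7 of the 12 were detected on at least 1 of the 6 arrays: VWF on all 6, PECAM1 and CLDN5 on 2 RPF1 Tet- and 0 Mock Tet- arrays, KDR on 1 and 0, and FLT1, TEK and TIE1 on some arrays of both groups. Of 14 keratinocyte and carcinoma line markers 2 were tested, of which SFN fell (-0.28) but was not called with chip as a block (-0.18, adjusted p = 0.39, limma), so that 0 of the list were then called. KRT5 and KRT14 were detected on no array. The part of other cells in these results was not tested.

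The same difference between the lines was also measured with Tet, on 6 other arrays. RPF1 Tet+ differed from Mock Tet+ at 1999 features (15.1%), with 1008 higher (7.62%) and 991 lower (7.49%). The features called higher in both media numbered 629, which is 30.1% of those higher without Tet and 62.4% of those higher with Tet. For lower features the number was 628, or 30.7% and 63.4%. Opposite calls were few, with 46 features higher without Tet and lower with it, and 17 the reverse. The 2 comparisons have no array in common, although they share 1 estimate of the spread. The difference of the line differences, Tet- minus Tet+, passed the test at 679 features (5.13%), 344 above 0 (2.6%) and 335 below 0 (2.53%). With chip as a block 296 features differed with Tet and 98 had a called difference of the line differences. Without Mock Tet+ 1, Mock Tet+ 3 or RPF1 Tet+ 1 the count with Tet was 1092, 1148 and 1324, and without RPF1 Tet- 3, RPF1 Tet+ 1 or Mock Tet- 3 the count for the difference was 417, 420 and 423.

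Most of the genes that rose most in RPF1 Tet- differed between the lines by a different amount with Tet. For 14 of the 15 the difference of the line differences was called, beside 5.13% of all features, and PRSS35 was the exception. That contrast contains the change by which the 15 were chosen, so the count is a description. HES5 was 0.29 higher in RPF1 Tet+ than in Mock Tet+ (adjusted p = 0.67, limma) and FOXA2 was 0.47 higher (adjusted p = 0.13), and the differences of the line differences were 4.14 and 3.04. CITED1, H2AC18 and H2AC20 were called lower in RPF1 Tet+ than in Mock Tet+, at -0.49, -0.72 and -0.50, and higher without Tet. PRSS35 was already 1.65 higher in RPF1 Tet+ (adjusted p = 0.004, limma), and its difference of 1.06 did not pass (adjusted p = 0.18).

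Among the 15 that fell most, the difference of the line differences was called for 10. Here too the contrast contains the change that chose the genes. CPA4, ANXA1, BMP5, NDUFV3, DNAJC12, EDIL3 and SEMA3C were not called lower with Tet, where CPA4 changed by -1.06 (adjusted p = 0.056, limma) and the other 6 by between -0.12 (EDIL3) and -0.28 (BMP5). EPHA3 (-0.45) and ACTBL2 (-1.53) were lower in both media and fell further without Tet. The other 5, GALC, GSPT2, EEF1AKMT1, MAGEB2 and OLR1, were called lower in both media with no called difference between them. GALC changed by -3.51 without Tet and by -3.54 with it, so that the difference was 0.02 with a 95% interval of -0.27 to 0.32. For GSPT2 the values were -3.06 and -3.10, with an interval of -0.37 to 0.45 for the difference. OLR1 was less settled, at -4.03 without Tet and -2.08 with it (difference -1.95, adjusted p = 0.097, 95% interval -3.27 to -0.63). These intervals are limma's, not adjusted for the number of genes.

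Other genes were selected because the line difference was nearly equal in both media, so their likeness is a description. These were the sulfatase family member ARSL (1.96 without Tet and 1.94 with it), the thrombospondin THBS4 (1.19 and 1.23), SYNGR4, a synaptogyrin (1.17 and 1.20), the phosphoribosyltransferase family member PRTFDC1 (-1.71 and -1.75) and the Sin3-associated gene SAP18 (-1.21 and -1.17). SYNGR4 was not called with chip as a block (0.73, adjusted p = 0.35). Over all 141 genes named by the rule, the difference of the line differences was called for 64. Another 41 were called the same way in both media without a called difference. The genes were chosen largely by their change without Tet, so these counts are a description. The 41 included NRARP, CRYAB, CELSR3, THBS2, FSTL3, IFITM3, TAGLN, PKP3 and DKK1. TAGLN changed by 1.45 without Tet and 1.77 with it, PKP3 by -1.80 and -1.89, and DKK1 by -2.20 and -1.50.

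The differences between RPF1 Tet- and Mock Tet- were not spread evenly over the chromosomes. Over 23 chromosomes and 11816 genes with a symbol, 16.3% of genes were higher and 15.6% lower, but on chromosome 20 48.7% of 335 genes were higher and 4.18% lower, and on chromosome 6 47.7% of 663 were higher and 4.22% lower. Chromosome 8 had 34.0% higher and 7.71% lower. On chromosome 10, 37.1% of 445 genes were lower and 7.19% higher, and on chromosome 4, 33.6% of 426 were lower and 4.69% higher. The median log2 changes were 0.33 on chromosome 6, 0.31 on chromosome 20, 0.19 on chromosome 8, -0.20 on chromosome 10 and -0.23 on chromosome 4, while those of the other chromosomes lay between -0.12 and 0.08. These shifts were seen on each RPF1 Tet- array, as the chromosome 6 median was 0.33, 0.31 and 0.32 on RPF1 Tet- 1, 2 and 3 against the Mock Tet- mean, and the chromosome 10 median was -0.18, -0.22 and -0.20.

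The same chromosomes stood apart with Tet, on arrays the comparison did not use. RPF1 Tet+ against Mock Tet+ gave medians of 0.32 on chromosome 6, 0.27 on chromosome 20, 0.19 on chromosome 8, -0.23 on chromosome 10 and -0.16 on chromosome 4. Across the 23 chromosomes the medians without and with Tet had a Pearson correlation of 0.971, as a description of points that share the 2 lines. Leaving out the 5 chromosomes with an absolute median of at least 0.15, 28.5% of 9532 genes were called, against 46.1% of 2284 genes on the 5. Chromosomes were chosen for display after their values were seen. The part of these chromosome-wide shifts in the gene and list results was not tested.

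**Figure D5:**
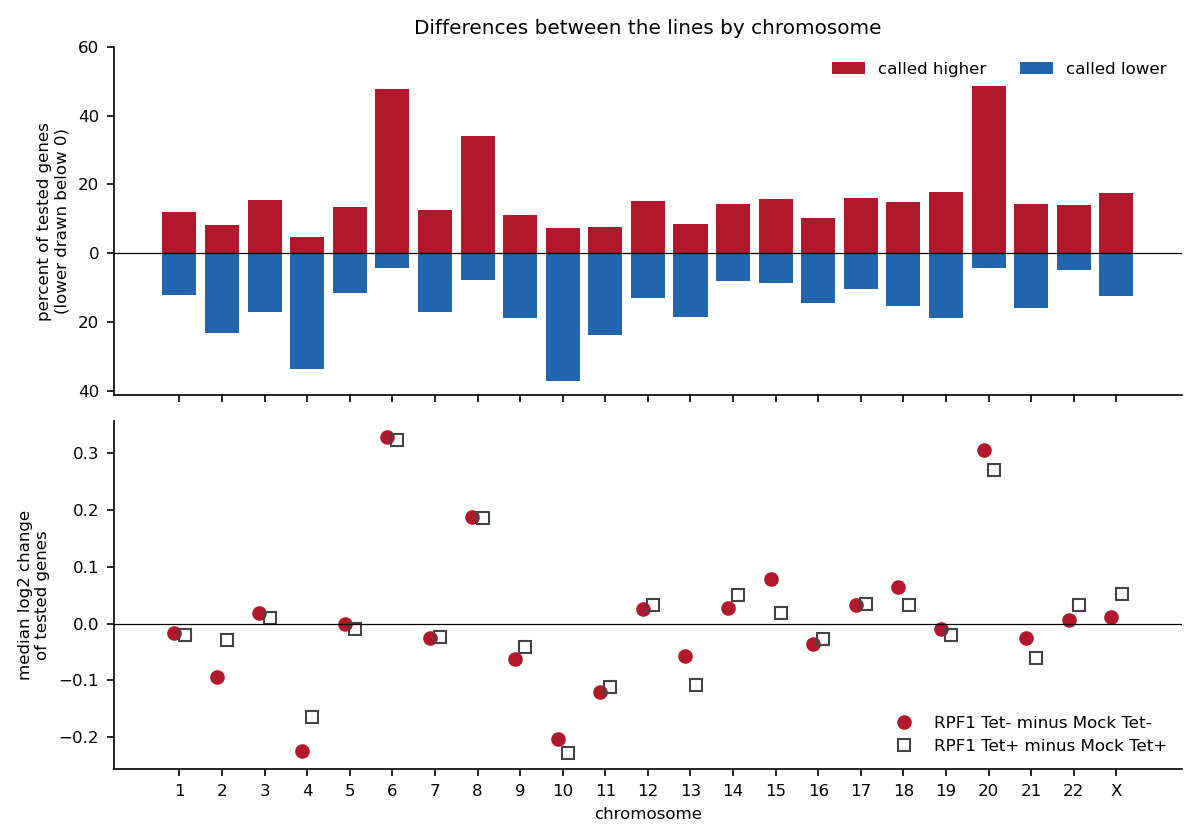
By chromosome (horizontal axis), the percent of tested genes called higher (red) and lower (blue, below 0) in RPF1 Tet- against Mock Tet- (top), and the median log2 change (bottom) without Tet (filled circles) and with Tet (open squares). Chromosomes 6, 8 and 20 lie above the others and chromosomes 4 and 10 below in both media.

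Within chromosomes, runs of neighbouring genes shifted together. In RefSeq gene order, 68 consecutive tested genes of chromosome 3 from TRNT1 to RAB5A had a median of -0.42, with 45 called lower and 1 higher in RPF1 Tet-, and in RPF1 Tet+ their median was -0.44 with 46 called lower. A run of 54 genes on chromosome 9 from RPL12 to C9orf78 had a median of -0.36 in both media, with 29 lower and 0 higher without Tet. On chromosome 8, 45 genes from TDRP to NUDT18 had a median of 0.38 without Tet and 0.40 with it. On chromosome 6, 74 genes from the histone gene H3C1 to C6orf136 had a median of 0.40 without Tet and 0.11 with it. These runs were found by a moving median over 25 genes of at least 0.35 in size, so their medians without Tet are a description.

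Some of the genes named above lie on these chromosomes and others do not. FOXA2 (3.52) lies on chromosome 20, whose median was 0.31. H2AC11 (2.80), FOXQ1 (1.85) and DLL1 (1.83) lie on chromosome 6, whose median was 0.33. H2AC18, H2AC20 and H2AC21 lie on chromosome 1, whose median was -0.02, and CITED1 lies on X, whose median was 0.01. Smaller rises on chromosome 6 included those of GMNN (0.68), ORC3 (0.67), TTK (0.62) and HLA-E (0.43). The desmosomal gene DSP (0.51) and the elongase ELOVL5 (0.75) are also on chromosome 6. These genes were set beside their chromosomes after values were seen. The part of the chromosome in their changes was not tested.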

How the data were processed

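Total RNA of HEK293 cells was measured on 12 Illumina bead arrays, and BeadStudio was the software, per the submitters' processing notes (version not given in the sources used here). One deposited table holds an unnormalized intensity and a detection p-value for each of 22184 probes, per the file headers. A second table that the authors deposited holds processed intensity values and served as an alternative. The deposited signals were taken to log2 here with limma 3.58.1 in R 4.3.3: normexp background correction with the background inferred from detection p-values and an offset of 16, and quantile normalization over the 12 arrays. A detection p under 0.05 on 3 or more arrays was required of a probe, which 14752 met, the brightest kept probe stood for each gene symbol, and 13228 features were tested, 11824 with a symbol. Symbols come from the platform annotation, updated through RefSeq, in which 20 gene identifiers were not found.

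A model with 1 coefficient for each of the 4 groups (8 residual degrees of freedom, prior 3.29) gave 3 contrasts, RPF1 Tet- against Mock Tet-, RPF1 Tet+ against Mock Tet+, and their difference. Adjusted p-values are Benjamini-Hochberg over all features, and a feature was called under 0.05. The scripts were tested on simulated data. The groups, gene lists, rules and alternatives were chosen with earlier results of these data known. The rule named the 15 largest rises and the 15 largest falls among called genes without overlap. It also named 6 marker genes of the comparison, 3 higher and 3 lower in RPF1 Tet-. Up to 4 called members of each of 32 lists were named too. The last were the 8 largest each way detected in 1 group only and the 8 with the most equal line difference in both media. List members outside the rule, the chromosome and run values and the promoter windows were chosen after values were seen. Promoters come from RefSeq on GRCh38.p14; no build is named for the probes. The level of the transfected factor is not reported here.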

Additional observations from a re-analysis of the deposited data

Results flagged for a closer look

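The line difference itself differed between media for 679 features (limma, Tet- minus Tet+), and for 64 of the named genes. The named genes were chosen largely by their values without Tet, which enter this difference. In 7 named genes the lines differed in opposite directions, each called in both media. The difference of the line differences on the log2 scale was 3.65 for CITED1, 3.36 for H2AC18, 2.84 for H2AC20, 2.93 for NPTX2 and 2.03 for HBA1, which were higher in RPF1 Tet- than in Mock Tet- and lower in RPF1 Tet+ than in Mock Tet+. It was -3.03 for TFPI and -1.12 for ITGB4, which were lower without Tet and higher with it. HBA1 was not called in RPF1 Tet- against Mock Tet- with chip as a block (1.06, adjusted p = 0.11), nor was ITGB4 (-0.53, adjusted p = 0.14).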

How the results depend on the processing

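For RPF1 Tet- against Mock Tet- the called count of 4135 moved to between 3316 and 5558 under other values, scaling, filters, probes, weights, variance models and a random chip block, and to between 2989 and 4251 with 1 array left out. With chip as a fixed block it was 1255 (599 higher, 656 lower), on the second chip alone 1119 (540 and 579), and with a minimum absolute change of 1 it was 400. Among features that lost their call under the chip block, the median size of the log2 change was 0.371 under it and 0.434 without it, and the median SE 0.157 and 0.111. For RPF1 Tet+ against Mock Tet+ these settings gave 296 (151 and 145) and 130 (58 and 72), and 1092 to 2393 with 1 array left out (548 to 1201 higher, 544 to 1192 lower), of which Mock Tet+ 1 gave 1092, Mock Tet+ 3 1148 and RPF1 Tet+ 1 1324. For the difference of the line differences array weights gave 1493 (753 and 740), the chip block 98 (46 and 52), the second chip 75 (37 and 38), and leaving out 1 array 417 to 663 (213 to 344 higher, 198 to 340 lower), with the lowest counts without RPF1 Tet- 3 (417), RPF1 Tet+ 1 (420) and Mock Tet- 3 (423). The causes were not tested. Deviations of same-numbered RPF1 Tet- and Mock Tet- arrays correlated at -0.25, -0.24 and 0.06. No RPF1 Tet- array correlated best with its own number. Deviations from a mean of 3 arrays depend on each other, so these values cannot tell whether replicate numbers pair the arrays. A replicate block gave 3592 for the endpoint and 427 for the difference (220 and 207). No named gene changed sign in a setting that tested it (with detection p under 0.01 on all 12 arrays 56 of the 141 were not tested); of 141, 34 lost their call with the chip block, 38 with only the second chip and at most 11 elsewhere. The number of arrays limits the precision, and probes near background have only bounds.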
